A study of Mus musculus with 10 samples.

Results

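Cyp3a11, Cyp3a25, Gsta1, Adh6a and Ces1f are 5 genes for enzymes that handle drugs, food chemicals and other foreign compounds in the epithelium of the gut. They were chosen by name, after their levels in the classes of wells described here were known, and are 5 of the 18022 genes listed over the libraries. Their differences between these classes are therefore given as descriptions, with no test. Transcripts were measured by CEL-seq2, in which a random barcode marks each poly(A) molecule, in 10 plates of 384 wells holding cells from small intestinal crypts of C57Bl/6 mice. In 7 libraries each well was labelled as a sorted single cell, and in 3 as a doublet or triplet picked by mouth pipette after a mild dissociation that leaves neighbouring cells attached. The experiment codes in the titles are GK5a for sorted libraries 1 to 5, GK5b for sorted libraries 6 and 7, and JC68, JC71 and JC72 for picked libraries 1 to 3. The GK5a titles share the further code M2 and are numbered 1 to 5, while the GK5b titles end in G and L. What these endings stand for is not given. The labels give no treatment, genotype or age, and no transgene. The code and the group cannot be told apart, and the sexes also differed. The female transcript Xist was at 115 to 155 CPM (transcripts scaled to the same endogenous total, spike-ins left out) in the picked and 0 to 0.98 CPM in the sorted libraries. The Y-linked Ddx3y was at 0 CPM in all 3 picked libraries and at 60.7 to 100.2 CPM in the 7 sorted ones.

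Absorptive enterocytes, the main cells of the villus, take up nutrients and are also the first cells to meet swallowed chemicals. Detoxification runs in steps. Phase I enzymes such as cytochromes P450, alcohol dehydrogenases and carboxylesterases oxidise, reduce or cleave a compound, phase II enzymes such as glutathione S-transferases attach a soluble group, and transporters carry the product out of the cell. Cyp3a11 and Cyp3a25 are cytochromes P450 of the family that clears many drugs, Adh6a is an alcohol dehydrogenase, Ces1f is a carboxylesterase, and Gsta1 joins glutathione to reactive compounds. The nuclear receptor PXR, encoded by Nr1i2, switches on Cyp3a genes in liver and gut when a ligand is present, and HNF4 factors act at many enterocyte genes.

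Cyp3a11 lies at chr5:145854426-145879964 and Cyp3a25 at chr5:145977194-146009618 (GRCm38, both on the minus strand, 13 exons each), with 97229 bases between them. Gsta1 lies at chr9:78230656-78242684 (plus strand, 7 exons), Adh6a at chr3:138313286-138331134 (plus strand, 9 exons) and Ces1f at chr8:93256236-93279747 (minus strand, 14 exons). The promoters of the first 4 are shown because the Cyp3a neighbours had like levels over the libraries and classes and the other genes less so. Each is the 250 bases before the start given by RefSeq for GRCm38.p6, 5′ to 3′ on the gene's strand, at chr5:145879855-145880104, chr5:146009619-146009868, chr9:78230419-78230668 and chr3:138313036-138313285. For Cyp3a11 and Gsta1 the annotation behind the gene positions reaches further upstream than this start. Capitals mark matches, on either strand, to AGGTCA or AGTTCA (half-sites read by nuclear receptors), CAAAGTCCA (read by HNF4 factors), TGACNNNGC (the core of the antioxidant response element) and TATAAA (the TATA box).
Cyp3a11: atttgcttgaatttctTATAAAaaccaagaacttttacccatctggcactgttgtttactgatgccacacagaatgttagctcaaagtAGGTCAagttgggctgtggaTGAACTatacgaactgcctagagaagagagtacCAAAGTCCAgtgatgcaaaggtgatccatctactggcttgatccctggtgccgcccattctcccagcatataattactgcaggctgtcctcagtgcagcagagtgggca
Cyp3a25: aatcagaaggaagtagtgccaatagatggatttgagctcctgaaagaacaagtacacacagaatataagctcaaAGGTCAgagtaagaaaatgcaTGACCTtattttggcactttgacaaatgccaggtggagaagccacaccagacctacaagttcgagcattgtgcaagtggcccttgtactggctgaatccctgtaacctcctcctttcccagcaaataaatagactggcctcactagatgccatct
Gsta1: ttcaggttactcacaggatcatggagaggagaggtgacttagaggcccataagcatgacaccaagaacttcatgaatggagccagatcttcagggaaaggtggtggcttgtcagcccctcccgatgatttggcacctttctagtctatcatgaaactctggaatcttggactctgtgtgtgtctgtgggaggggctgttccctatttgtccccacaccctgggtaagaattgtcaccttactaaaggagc
Adh6a: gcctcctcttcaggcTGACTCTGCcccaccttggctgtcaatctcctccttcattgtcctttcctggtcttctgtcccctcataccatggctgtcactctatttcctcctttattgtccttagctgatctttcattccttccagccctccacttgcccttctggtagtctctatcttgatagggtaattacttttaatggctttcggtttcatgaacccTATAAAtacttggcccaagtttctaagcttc

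In the Cyp3a11 promoter AGGTCA began at position -162 from the start, AGTTCA at -142 on the other strand, CAAAGTCCA at -109 and TATAAA at -234. The Cyp3a25 promoter held AGGTCA at -176 and again at -155 on the other strand. The Adh6a promoter held TGACNNNGC at -235 and TATAAA at -31, and the Gsta1 promoter held no match to these letters. Of 32851 promoters of the same table, cut to the same length, 14.0% held AGGTCA, 11.8% AGTTCA, 10.2% TGACNNNGC, 12.4% TATAAA and 0.384% CAAAGTCCA. None of the 5 motifs overlapped another in these windows, and a match is a description of letters, not a site of binding. The Cyp3a11 and Cyp3a25 windows were identical at 54.3% of aligned positions, against 42.8% to 52.4% for the other pairs.

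Counts near the transcript end can be split between near-identical genes, so identity was computed over the last 300 bases of the annotated transcripts. Gsta1 shares 94.3% of these bases with Gsta2, and Cyp3a25 shares 94.4% with Cyp3a59. Over all wells used Gsta2 had 24 transcripts and Cyp3a59 had 13, so the single levels of Gsta1 and Cyp3a25 are uncertain to the extent that reads were misassigned. Cyp3a11 shares at most 54.8% with the other Cyp3a genes compared, Ces1f at most 65.6% with other Ces1 genes, and Adh6a at most 54.3% with other alcohol dehydrogenases.

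Wells with at least 1000 endogenous transcripts were used, 1615 sorted and 501 picked. They held 1022859 to 4832581 transcripts per sorted library and 821829 to 1232614 per picked library. Absorptive wells, with Apoa1 and Apoa4 (apolipoproteins of enterocytes) at 0.5% of transcripts or more, numbered 99. There were 459 Lgr5-positive wells (a transcript of the stem cell receptor), 1007 cycling wells (a transcript of Mki67, made by dividing cells) and 393 goblet wells (Muc2, Fcgbp, Zg16 and Clca3, made by mucus-secreting cells, at 2% or more). The classes may overlap, and of the absorptive wells 5 were also Lgr5-positive, 3 cycling and 1 goblet. The absorptive class carried the markers of its name. All 12 enterocyte markers, of which 2 define the class, were found in absorptive wells and made up 3.87% to 9.36% of their transcripts per library, against 0.0764% to 0.273% in Lgr5-positive wells. Absorptive wells were in sorted libraries 1 to 5 (16, 22, 8, 19 and 14 wells) and picked libraries 2 and 3 (5 and 13), while sorted library 7 and picked library 1 had 1 each and sorted library 6 had 0. Their median depth was 3265 transcripts, against 8323 in Lgr5-positive, 10569 in cycling and 7975 in goblet wells. Levels are CPM of library totals, pooled over the wells of a class in a library, for classes with at least 5 wells there. Since 1 barcode stands for 1 molecule whatever its length, levels of different genes are compared as molecules, without a length term.

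The 5 genes together made up 0.267% ± 0.106 (SD, n = 7 libraries) of the transcripts of absorptive wells. Their summed share was 0.0115% ± 0.00832 in cycling wells, 0.00616% ± 0.00405 in Lgr5-positive wells and 0.00557% ± 0.00277 in goblet wells (SD, n = 10 each). The lowest absorptive library, picked 2, stood at 917 CPM, above the highest value of any library in the other classes, 269 CPM in the cycling wells of sorted library 5. The other 3 classes overlapped one another. The 512 wells of none of these classes, from which wells with Paneth cell markers were also set apart, held 0.0340% ± 0.0214 (SD, n = 10), and their highest library stood at 792 CPM. Absorptive wells held 3.22% of all transcripts and 43.9% of those of the 5 genes, with large differences among the genes.

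Cyp3a11 was the most restricted to these wells. In the absorptive wells of sorted libraries 1 to 5 it stood at 845, 1111, 1060.3, 839 and 898 CPM, and in those of picked libraries 2 and 3 at 102 and 400.0 CPM. The value of picked library 2 rests on 1 transcript. Over the 7 libraries the mean was 751 ± 367 CPM (SD), against 2.00 ± 3.19 in Lgr5-positive, 10.1 ± 26.2 in cycling and 0.48 ± 1.36 in goblet wells (SD, n = 10 each). No absorptive value overlapped a value of another class, and the other 3 classes did not differ beyond their spread. The cycling mean was set by sorted library 2, at 84.6 CPM, where every transcript came from 1 well that was also absorptive. Without it that library stood at 0, and the other 9 libraries were between 0 and 4.79 CPM. The absorptive wells held 94.1% of the Cyp3a11 transcripts, and wells of none of the classes stood at most at 18.8 CPM in a library.

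Cyp3a25 was high in absorptive wells too, with more of its transcripts outside them. It stood at 1022, 1121, 669, 925 and 842 CPM in the absorptive wells of sorted libraries 1 to 5 and at 204 and 901 CPM in picked libraries 2 and 3, a mean of 812 ± 303 CPM (SD, n = 7). The means were 7.38 ± 8.83 CPM in Lgr5-positive, 19.3 ± 31.3 in cycling and 3.69 ± 8.21 in goblet wells (SD, n = 10 each), which overlapped one another and no absorptive value. Absorptive wells held 67.8% of its transcripts, and wells of none of the classes stood at most at 107 CPM in a library. The cycling level of sorted library 5, 94.7 CPM, fell to 7.76 CPM without the deepest well of the series. That well held 158704 transcripts, 23.5 times the median of its library, with 1 transcript of Mki67 and Apoa1 plus Apoa4 at 0.426%, just short of the absorptive class. It alone held 14.3% of all Cyp3a25 transcripts and 7.06% of the transcripts of the 5 genes.

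Adh6a was high in absorptive wells and also measurable in the others. It stood at 222, 770.0, 241, 582 and 825 CPM in sorted libraries 1 to 5 and at 509.6 and 1787 CPM in picked libraries 2 and 3, with a mean of 705 ± 531 CPM (SD, n = 7). The picked library 3 value was the highest of any gene and library among the absorptive wells. Means were 47.0 ± 32.4 CPM in cycling, 32.8 ± 24.2 in Lgr5-positive and 12.3 ± 12.1 in goblet wells (SD, n = 10 each), with no overlap with the absorptive values and overlap among themselves. Wells of none of the classes stood between, at 164 ± 105 CPM (SD, n = 10), and their highest library, sorted 1 at 410 CPM, lay above the absorptive wells of sorted libraries 1 and 3. Absorptive wells held 29.1% of its transcripts, cycling wells of no earlier class 33.2%, and wells of none of the classes 26.0%.

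Gsta1 was the most uneven of the 5. Its absorptive levels were 14.8, 271, 0, 233 and 624 CPM in sorted libraries 1 to 5 and 0 and 884 CPM in picked libraries 2 and 3, a mean of 290 ± 345 CPM (SD, n = 7). Both libraries at 0 had few absorptive wells, and 0 allows up to 55.7 CPM in sorted library 3 and 306 CPM in picked library 2, which covers counting error only. The goblet mean was 23.5 ± 15.6 CPM, the cycling mean 13.0 ± 13.6 and the Lgr5-positive mean 5.52 ± 7.60 (SD, n = 10 each). The absorptive range overlapped all 3, so for Gsta1 the classes did not separate by library. Its share of transcripts in absorptive wells was 36.8%, with 25.5% in wells of none of the classes.

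Ces1f had the lowest mean level of the 5 in absorptive wells. It stood at 88.8, 103, 130.1, 69.8 and 109.7 CPM in the absorptive wells of sorted libraries 1 to 5 and at 102 and 199.995 CPM in picked libraries 2 and 3, with a mean of 115 ± 41.9 CPM (SD, n = 7). The means were 25.9 ± 11.2 in cycling, 15.8 ± 13.7 in goblet and 13.9 ± 14.9 in Lgr5-positive wells (SD, n = 10 each). The lowest absorptive value lay above the highest of these 3 classes, 46.3 CPM in the Lgr5-positive wells of sorted library 5. These absorptive levels rest on few transcripts. The value of picked library 2 is 1 transcript, where a count of 0 allows 306 CPM, and the 7 transcripts of sorted library 3 came from 1 well. It did not lie above wells of none of the classes, which stood at 81.9 ± 30.5 CPM with a highest value of 123 CPM (SD, n = 10). In the 5 GK5a libraries those wells were at 101 ± 16.9 CPM and the absorptive wells at 100.3 ± 22.6 CPM (SD, n = 5), so the level was not particular to absorptive wells. Only 10.3% of its transcripts were in absorptive wells, while 40.5% were in cycling wells of no earlier class, 49.6% in all cycling wells and 32.0% in wells of none of the classes.

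**Figure D1:**
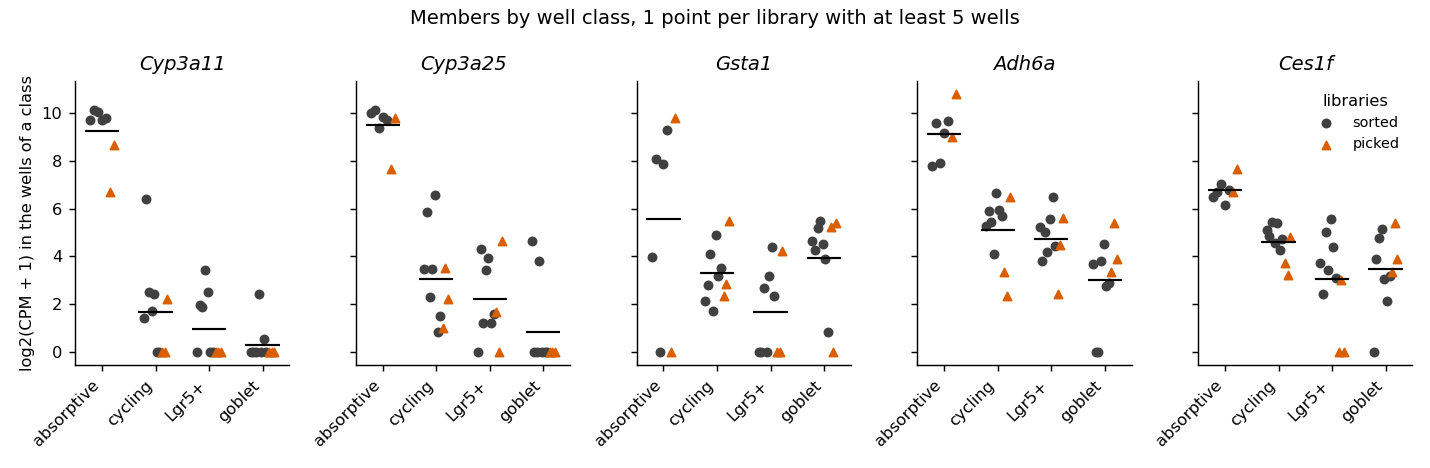
Level of each gene by class of well, as log2(CPM + 1) on the vertical axis, with 1 point per library with at least 5 wells of the class and bars at the mean of the plotted log values. Cyp3a11, Cyp3a25, Adh6a and Ces1f are higher in every absorptive library than in any library of the Lgr5-positive, cycling and goblet wells, while the Gsta1 points of absorptive wells run from 0 to 884 CPM. In picked library 2 the absorptive points of Cyp3a11 and Ces1f are 1 transcript each.

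The share of wells with a transcript was also highest for the Cyp3a genes. Cyp3a11 and Cyp3a25 were each seen in 67 of 99 absorptive wells (67.7%), Adh6a in 59.6%, Gsta1 in 28.3% and Ces1f in 25.3%. In goblet wells the shares were 0.51% for Cyp3a11, 1.02% for Cyp3a25, 6.11% for Adh6a, 7.12% for Gsta1 and 5.60% for Ces1f, although these wells were deeper. Of the 393 goblet wells 241 were in the GK5b libraries, which held 1 absorptive well. The pooled goblet shares are therefore not a measure of free RNA from enterocytes. In the 121 goblet wells of GK5a, Cyp3a11 was in 0.83% and Cyp3a25 in 3.31%. After each well was thinned to 2000 transcripts, which left out 299 of the wells used and 34 of the absorptive ones, absorptive shares were 53.8% for Cyp3a11, 69.2% for Cyp3a25, 52.3% for Adh6a, 23.1% for Gsta1 and 20% for Ces1f. Thinned goblet shares were 0.29% for each Cyp3a gene, 1.43% for Adh6a, 2.00% for Gsta1 and 1.14% for Ces1f. Adh6a was then in 5.63% of Lgr5-positive and 5.72% of cycling wells, above its goblet share, while Gsta1 at 1.41% and 1.80% was not. Thinned Cyp3a11 shares were 0.70% in Lgr5-positive and 0.32% in cycling wells, which rest on 3 wells each.

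Because the absorptive class is a cut on a continuous share, the levels were also read along the share of Apoa1 plus Apoa4, in bins chosen after the values were seen and pooled over libraries. The 5 genes did not climb together. Adh6a, Gsta1 and Ces1f had climbed before the class limit. Adh6a went from 21.996 CPM in the 1685 wells with no apolipoprotein transcript to 120 CPM in wells above 0 and up to 0.05%, 493 CPM up to 0.25% and 868 CPM up to 0.5%, and was at 701 CPM in the 26 wells at 2% and over. Gsta1 was at 5.54, 33.6, 211 and 296 CPM in the same 4 bins, at 436 CPM from 1% to 2% and at 162 CPM at 2% and over. Ces1f was at 16.9, 60.8, 195 and 215 CPM and then at 110 CPM. Its highest level thus lay just outside the absorptive class.

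The Cyp3a genes climbed later and in turn. Cyp3a25 was at 3.35, 10.9 and 65.1 CPM in the first 3 bins and at 721 CPM between 0.25% and 0.5%, or 478 CPM without the deepest well. It was at 810, 956 and 1065 CPM in the 3 bins of the absorptive class. Only this pooled level rose there. The share of wells with Cyp3a25 went from 75% to 66.7% and 61.5%. Its mean over libraries with at least 3 wells of the bin was 725, 927 and 826 CPM. Cyp3a11 was at 1.34, 0.47, 5.20 and 50.6 CPM in the 4 bins under 0.5%, the last of them at 81.3 CPM without the deepest well, and then at 485 CPM from 0.5% to 1%, 644 CPM from 1% to 2% and 2192 CPM at 2% and over. As means over libraries with at least 3 wells, the last 3 bins stood at 469, 625 and 1778 CPM. The median well at 2% and over was at 1460 CPM, and 1 well of sorted library 2 held 14.9% of all Cyp3a11 transcripts. Cyp3a11 made up 6.63% of the transcripts of both Cyp3a genes in the 15 wells between 0.25% and 0.5% (exact 95% interval 3.58% to 11.1%, counting error only), and 14.5% (6.50% to 26.7%) without the deepest well. It made up 28.6% (18.8% to 40.0%) in wells with no apolipoprotein transcript, 37.4% (32.1% to 43.0%) from 0.5% to 1% and 40.2% (36.0% to 44.6%) from 1% to 2%. In the 26 wells at 2% and over it made up 67.3% (62.7% to 71.6%). Right at the limit, the 15 wells just outside it, from 0.25% to 0.5%, and the 15 just inside, from 0.5% to 0.75%, stood at 50.6 (81.3 without the deepest well) and 536 CPM for Cyp3a11, 721 (478 without it) and 773 CPM for Cyp3a25, 868 and 833 CPM for Adh6a, 296 and 387 CPM for Gsta1 and 215 and 173 CPM for Ces1f. At the goblet limit the 123 wells from 1% to 2% held 38.1 CPM of the 5 genes together and the 86 wells from 2% to 3% held 12.0 CPM.

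**Figure D2:**
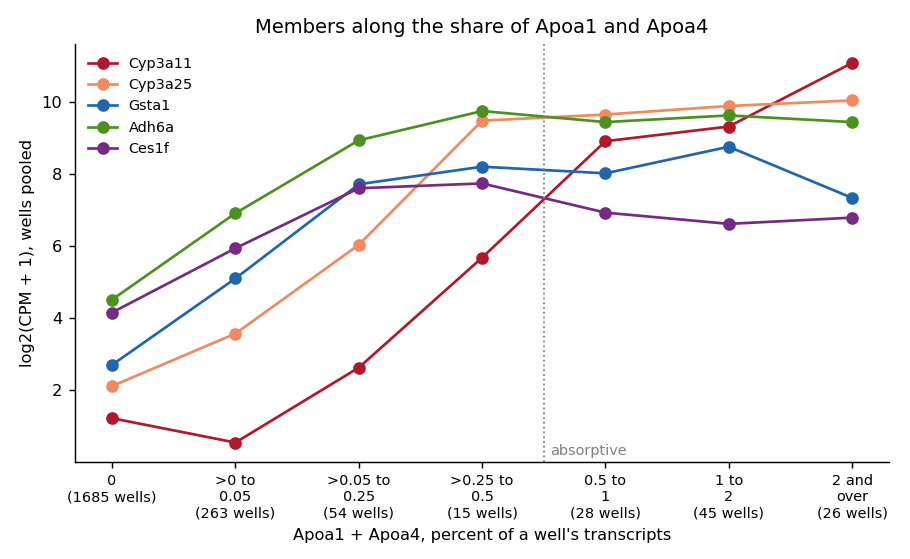
Level of each gene (log2(CPM + 1) on the vertical axis) in bins of the share of transcripts from Apoa1 plus Apoa4, pooled over the wells of all libraries. Adh6a, Gsta1 and Ces1f reach 868, 296 and 215 CPM before the 0.5% limit of the absorptive class, whereas Cyp3a11 goes from 50.6 CPM just under it, or 81.3 CPM without the deepest well, to 2192 CPM in the last bin.

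Within the 99 absorptive wells, 7 held no transcript of any of the 5 genes, 25 held 1 gene, 20 held 2, 21 held 3, 12 held 4 and 14 held all 5. These numbers move with depth, from a median of 1413 transcripts in wells with none to 11041 in wells with all 5. Gsta1 was seen in 28 wells, of which 26 also held Cyp3a25, 26 held Adh6a and 22 held Cyp3a11. Cyp3a11 and Cyp3a25 were together in 48 wells.

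Correlations over the absorptive wells are given as descriptions, since the wells share libraries and depth. The Spearman correlation of Gsta1 with Adh6a was 0.67 over 99 wells and 0.79 over the 65 with at least 2000 transcripts. Both went with Fabp1, a fatty acid carrier, at 0.70 for Adh6a and 0.63 for Gsta1 over 99 wells. Cyp3a11 went with Apoa4 at 0.47 and, at 0.39, with Apoc3, also an apolipoprotein. Its correlation with Cyp3a25 was 0.24. Cyp3a25 went with Sis, the sucrase of the brush border, at 0.49. Cyp3a11 (-0.40), Gsta1 (-0.36) and Adh6a (-0.36) ran against Fabp6, the bile acid carrier made by enterocytes of the ileum, and over the 65 deeper wells the values were -0.51, -0.54 and -0.61. Cyp3a25 (-0.17) and Ces1f (-0.11) had weaker values of the same sign.

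That last pattern was read by library after it was seen, by splitting absorptive wells at Fabp6 of 0.1% of transcripts. In sorted libraries 1 to 5, 7, 5, 5, 4 and 6 wells lay at or above it. Cyp3a11 stood at 430, 447, 582, 349 and 152 CPM in these Fabp6-high wells and at 1136, 1320.3, 1446, 1137 and 1319.8 CPM in the other absorptive wells, so it was lower in the Fabp6-high wells of 5 of 5 libraries, with no overlap. Its means were 392 ± 158 and 1272 ± 134 CPM (SD, n = 5). Adh6a was at 213 ± 44.2 and 683 ± 408 CPM and Gsta1 at 5.05 ± 11.3 and 344 ± 389 CPM, each lower in the Fabp6-high wells of 4 of 5 libraries, with ranges that overlap between libraries. The exceptions were sorted library 3 for both, where Gsta1 was at 0 in either set. Over all absorptive wells the Fabp6-high ones held 3 transcripts of Gsta1 and the others 226.

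Cyp3a25 and Ces1f were also lower in the Fabp6-high wells of 4 of 5 libraries, but their means were close. Cyp3a25 was at 863 ± 154 CPM in the Fabp6-high and 945 ± 188 CPM in the other wells, and Ces1f at 87.4 ± 117 and 97.1 ± 63.1 CPM (SD, n = 5), with ranges that overlap. Of genes outside the 5, Fabp1 was at 313 ± 198 and 3249 ± 1486 CPM, Adh1, the main alcohol dehydrogenase of the gut, at 256 ± 78.8 and 1575 ± 1189 CPM, and Lct, the lactase of the upper small intestine, at 1364 ± 408 and 2470.2 ± 708 CPM (SD, n = 5 each). Apoa4, which helps to define the class, was at 372 ± 366 and 4935 ± 2461 CPM and lower in the Fabp6-high wells of 5 of 5 libraries. Apoa1 was lower in 4 of 5. Not all enterocyte genes went this way: Fabp2, a fatty acid carrier of the small intestine, was higher in the Fabp6-high wells of 4 of 5 libraries, and Sis and Gata4, a factor of the upper small intestine, were lower in 3 and higher in 2. The position of the cells along the intestine is not in the labels, and its part in these differences was not tested.

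**Figure D3:**
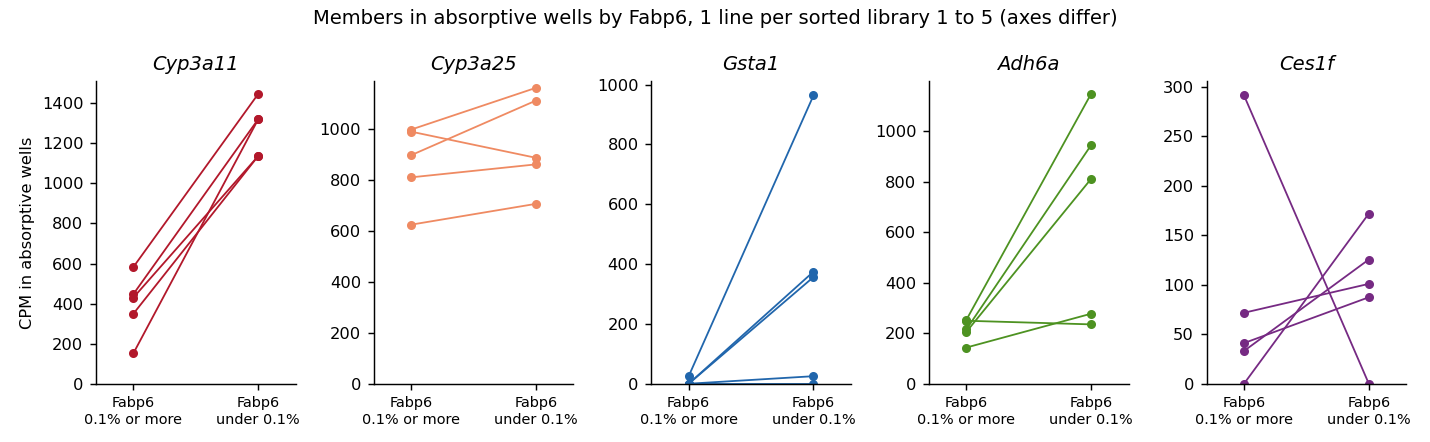
Level of each gene (CPM, axes differ between genes) in absorptive wells with Fabp6 at 0.1% of transcripts or more and under it, with a line joining the 2 values of each of the 5 sorted libraries. Cyp3a11 is higher under 0.1% in 5 of 5 libraries, and Adh6a, Gsta1, Cyp3a25 and Ces1f in 4 of 5 each with ranges that overlap.

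The genes most alike to each of the 5 were ranked by the Pearson correlation of log2(CPM + 1) over 55 sums, each the wells of 1 library and 1 exclusive class, among 8997 genes. The sums share libraries and differ in depth, so these values are descriptions. For Cyp3a11 the first 3 were Slc5a4b (0.90), a sodium-coupled sugar transporter family member, Sema6a (0.89) and Ezr (0.88), which encodes the microvillus linker ezrin. They were followed by Cyp4v3 and Mme (0.87 each), Ubd, Dnase1, Apoa4, Slc6a19 and Apoa1 (0.85 each). For Cyp3a25 they included Slc5a4b (0.87), followed by Sema6a, Mme, Ggt1, Spink3, Hsd17b6, Maoa, Apoa4 and Ezr (0.85 to 0.86). Apoa1 and Apoa4 define the absorptive class.

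Adh6a was most like Sult1b1 (0.89), a sulfotransferase, and Fabp1 (0.88), and its list also held Apob, Gda, Tgfbi, Rdh7, Maoa, Gpt and Xdh (0.85 to 0.86). Ces1f was most like Slc7a9 (0.92), a subunit of an amino acid transporter, Mttp (0.85), which loads lipid onto apolipoprotein B, and Lrp1 (0.84), then Apol10a, Tgfbi, Mdh2, Enpep, Cyp4f14, Maoa and Ces2a (0.81 to 0.84). For Gsta1 the highest values were lower, led by Acot9 (0.68), Ugt2b5 (0.67), a glucuronosyltransferase, and Cdkn2b (0.67), then Entpd5, Osbpl6, Cdr2, Papss2, Mir22hg, Reg3a and Hsd17b6 (0.62 to 0.66). The sum of the 5 genes was most like Cndp2 (0.92), a dipeptidase, and Cyp4f14 (0.91), followed by Slc7a9, Sult1b1, Exoc3l4, Gnb1, Abp1, Trim31, Fabp1 and Maoa (0.87 to 0.88). Among the 5 themselves, Cyp3a11 and Cyp3a25 correlated at 0.88, Adh6a and Ces1f at 0.81 and Adh6a and Cyp3a25 at 0.75, with Cyp3a11 and Gsta1 lowest at 0.43.

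The other genes of the pathway were compared between absorptive and other wells of the same library, in the 7 libraries with at least 5 absorptive wells. The lists were chosen with earlier results of these data known. The share of listed genes called is therefore a description of the lists, not independent support. Of 146 listed genes 133 had a transcript and 94 were tested. By limma on log2(CPM + 1) with library as a block, 39 passed a Benjamini-Hochberg adjusted p of 0.05 as higher in absorptive wells and 6 as lower, against 9.17% of all 8160 genes tested called higher and 35.5% called lower. The median difference was 0.76 over the 94 genes and -1.30 over all genes. The absorptive sums held 9710 to 248438 transcripts and the sums of other wells at least 811983, so the comparison was repeated with the other wells drawn down at random to the same depth, a choice made after the data were seen. Then 36 of 48 pathway genes tested were higher and 1 lower, against 26.4% and 25.1% of 2019 genes, with a median of 2.46 over the pathway and -0.03 over all. Of the 39, 31 were higher in both, 7 were not tested at the lower depth and 1 was tested and not called. Of the 6 lower genes, 5 were not tested at the lower depth. Genes scarce in other wells, such as Cyp2b10, Akr1b7 and Cyp4b1, passed the filter of both fits only through absorptive sums, as did Cyp2d22 in the first. Gstm5 and Ces1d, scarce in absorptive wells, entered the first fit only through sums of other wells. The calls of such genes are descriptions. The balance of calls, also at equal depth, is thus partly set by which genes could be tested. Nothing in the labels says which plates hold separate animals, so here and in the next comparison a p-value speaks only of the spread from library to library, which may be technical.

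In phase I, 12 of 18 cytochromes P450 and their partners were higher in absorptive wells and none lower. Cyp4v3, a fatty acid hydroxylase with the highest mean level of the list, was at a median of 1914 CPM (309 to 2758) in absorptive and 75.4 CPM (37.0 to 145) in other wells over 7 libraries, with no overlap and a log2 difference of 4.20 ± 0.35 (SE, limma, Benjamini-Hochberg adjusted p = 7.8e-06). Cyp2b10, a drug-inducible P450, was at a median of 221 CPM (0 to 543) and 0.98 CPM (0 to 6.68), which overlap through 1 absorptive sum at 0. Its log2 difference was 5.63 ± 0.99 (SE, limma), a description, since it entered the fit only through absorptive sums. Cyp4b1 (5.16) and Cyp2d22 (4.78) were the other P450s among the 4 largest differences by limma, and entered the fit in the same way. Cyp3a13, a relative of the Cyp3a genes above, picked out here after its values were seen, was at 637 ± 167 CPM in absorptive and 38.5 ± 28.1 CPM in other wells (SD, n = 7) and was also called higher.

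Of 21 alcohol and aldehyde dehydrogenases, aldo-keto reductases and like enzymes, 7 were higher and 2 lower. Aldh1b1, a mitochondrial aldehyde dehydrogenase and the abundant one of the lower pair, was at 276 ± 112 CPM in absorptive and 781 ± 219 CPM in other wells (SD, n = 7), with no overlap. Its log2 difference was -1.67 ± 0.27 (SE, limma, Benjamini-Hochberg adjusted p = 0.00073), and -1.60 at equal depth, where it was the 1 pathway gene called lower. The other 5 lower genes of the pathway were not tested there. Akr1b7, an aldose reductase relative, was at a median of 394 CPM (166 to 542) in absorptive and 7.21 CPM (1.23 to 36.2) in other wells, with no overlap. Its log2 difference was 5.27 ± 0.52 (SE, limma), again a description, since it entered the fit only through absorptive sums. Akr1a1, at 1095 ± 161 and 758 ± 157 CPM (SD, n = 7), was called with a log2 difference of 0.45 (limma, Benjamini-Hochberg adjusted p = 0.046), but kept the call in only 1 of the 7 fits that left out a library. Adh1 was at 1151 ± 706 and 499 ± 319 CPM (SD, n = 7), with overlap, and was called only after drawing down, where its log2 difference was 1.19. Of 5 carboxylesterases, 2 were higher and 2 lower. Ces2e, an esterase of the gut, was at a median of 2537 CPM (1714 to 2870.1) and 328 CPM (181 to 464), a log2 difference of 2.80 ± 0.17 (SE, limma, Benjamini-Hochberg adjusted p = 1.6e-06). Ces1d and Ces1e, relatives of Ces1f, were the lower ones, at 4.67 ± 7.98 and 21.6 ± 13.0 CPM for Ces1d and 6.77 ± 8.05 and 23.2 ± 5.50 CPM for Ces1e in absorptive and other wells (SD, n = 7), and neither was tested at equal depth.

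In phase II, 4 of 19 glutathione S-transferases and related enzymes were higher and 1 lower. Gsto1, the most abundant, was at 640.0 ± 199 CPM in absorptive and 583 ± 156 CPM in other wells (SD, n = 7), and its log2 difference of 0.03 did not pass the test (95% interval -0.45 to 0.51). Gstm5 was at 8.41 ± 18.9 and 49.8 ± 7.20 CPM (SD, n = 7), with a log2 difference of -4.41 (limma). It rests on 5 transcripts in absorptive wells, with 5 of 7 absorptive sums at 0. It was not tested at equal depth. Of 14 glucuronosyl-, sulfo-, methyl- and acetyltransferases and their suppliers, 7 were higher and none lower. Ugt2b34, a glucuronosyltransferase, was at a median of 1419 CPM (618 to 1529) against 361 CPM (82.5 to 417), a log2 difference of 1.99 ± 0.17 (SE, limma, Benjamini-Hochberg adjusted p = 1e-05).

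Of 6 transporters tested, 4 were higher. Abcb1a, which encodes the drug efflux pump P-glycoprotein, was at a median of 359 CPM (309 to 512) in absorptive and 55.1 CPM (17.2 to 83.7) in other wells, with no overlap and a log2 difference of 2.95 ± 0.28 (SE, limma, Benjamini-Hochberg adjusted p = 2e-05). The uptake carrier Slco2b1 was the 1 lower transporter, at 9.24 ± 12.8 and 53.6 ± 15.4 CPM (SD, n = 7), and was not tested at equal depth. Of 11 regulators, 3 were higher, none lower and 8 not called, with a median difference of -0.73 over the list. Hnf4g, an HNF4 factor, was at a median of 723 CPM (206 to 1211) and 238 CPM (76.4 to 330), which overlap, with a log2 difference of 1.46 ± 0.25 (SE, limma, Benjamini-Hochberg adjusted p = 0.00098). Nr1i2 was at 138 ± 130 and 41.5 ± 7.22 CPM (SD, n = 7), with a log2 difference of 1.17 (limma, Benjamini-Hochberg adjusted p = 0.027). Its ranges overlap, at 36.2 to 412 CPM and 34.2 to 55.4 CPM, and the highest value, in picked library 2, is 4 transcripts. In sorted libraries 2 and 4 Nr1i2 was at 36.2 and 39.3 CPM, against 34.9 and 34.2 CPM in other wells. It was not tested at equal depth. The third regulator called higher was Nfe2l2, which encodes the antioxidant response factor NRF2, at a log2 difference of 0.76 (limma, Benjamini-Hochberg adjusted p = 0.011). Hnf4a, the other HNF4 gene of the list, went the other way, at -0.70 and at -0.56 at equal depth, and was not called.

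For the 5 genes themselves the same log2 differences, given with no test, were 7.31 for Cyp3a11, 5.50 for Cyp3a25, 3.09 for Adh6a, 1.46 for Ces1f and 0.93 for Gsta1, and at equal depth 7.28, 6.66 and 3.49 for the first 3 and 2.01 for Gsta1. Markers of liver cells, which also make these enzymes, were read beside them: Alb, Ahsg, Fgb and Trf were at 0 transcripts in absorptive wells, Ttr, Serpina1a and Apoh at 1 each, and Cyp2e1, the last of the 8 markers, at 59. The summed list made up 0.00186% to 0.0815% of absorptive transcripts per library. Immune markers made up 0 to 0.00183%.

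**Figure D4:**
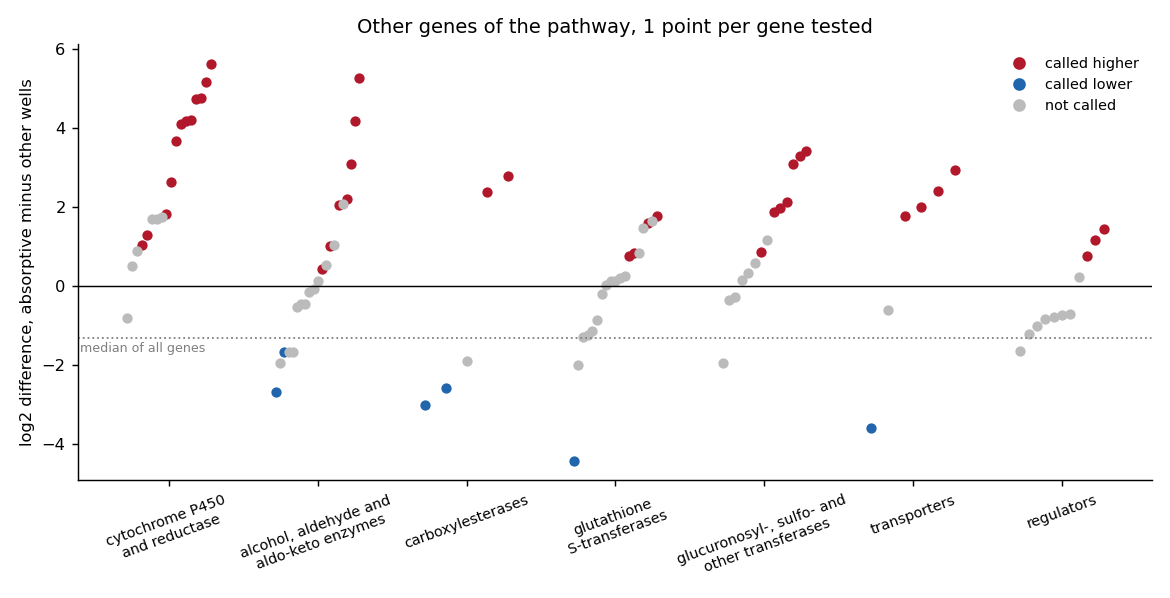
Log2 difference between absorptive and other wells of the same library for each tested gene of the pathway lists, 1 point per gene by list, with colour for the limma call and a dotted line at the median of all genes tested (-1.30). The P450 list has 12 genes called higher and none lower, and the regulators 3 higher, none lower and 8 not called.

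The picked wells ask whether groups of attached cells differ from single cells. Over all wells used, none of the 5 genes was called between picked and sorted libraries by limma at Benjamini-Hochberg adjusted p under 0.05, against 30.2% of 10427 genes tested, and 0 of the 5 had an unadjusted p under 0.05. Such sums cannot tell fewer cells of a type from less RNA per cell. Cyp3a11 stood at 59.7, 125, 29.5, 64.2 and 46.7 CPM in sorted libraries 1 to 5, at 0.21 and 0.45 CPM in sorted libraries 6 and 7, and at 0, 1.22 and 24.1 CPM in picked libraries 1 to 3. The GK5a libraries thus lay above every picked library and the GK5b libraries within the picked range. The 2 GK5b libraries held 1 absorptive well between them. The log2 difference was -2.23 ± 1.46 (SE, limma, Benjamini-Hochberg adjusted p = 0.26). Cyp3a25 was also lowest in GK5b, at 87.1, 146, 21.1, 78.1 and 116 CPM, 0.83 and 2.72 CPM, and 3.25, 10.95 and 51.6 CPM in the same order, with overlap between GK5a and picked libraries. It had a log2 difference of -0.78 ± 1.29 (SE, limma, Benjamini-Hochberg adjusted p = 0.67).

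Adh6a stood at 124, 149, 66.5, 74.7 and 143 CPM in sorted libraries 1 to 5, at 53.3 and 46.5 CPM in 6 and 7, and at 39.0, 24.3 and 178 CPM in the picked libraries, with picked library 3 above all others. Gsta1 was at 9.53 to 57.0 CPM in the sorted and 13.8, 12.2 and 84.3 CPM in the picked libraries, and Ces1f at 17.8 to 58.1 CPM and 19.5, 15.8 and 42.1 CPM. The picked values overlap the sorted ones for all 3. Their log2 differences were -0.28 ± 0.52, 0.21 ± 0.63 and -0.34 ± 0.37 (SE, limma, Benjamini-Hochberg adjusted p = 0.70, 0.83 and 0.51).

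Taking the sorted libraries of 1 experiment code at a time gave other results for the Cyp3a genes. In these fits code, sex and picking still differ together. Against the GK5a libraries alone Cyp3a11 was lower in picked libraries by a log2 difference of -3.73 ± 0.82 and Cyp3a25 by -2.11 ± 0.69 (SE, limma, Benjamini-Hochberg adjusted p = 0.0048 and 0.035), against 15.9% of genes called lower. The same fit did not call Adh6a (-0.53), Ces1f (-0.64) or Gsta1 (-0.22). Against GK5b alone, Gsta1, Adh6a and Ces1f had log2 differences of 1.42, 0.47 and 0.56, none called, and the Cyp3a genes were too low to be tested. Which of the 2 sorted experiments is the better counterpart to the picked libraries is not given by the labels.

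Of the pathway list, 4 of 103 tested genes were higher in picked libraries and 16 lower, against 14.2% and 16.0% of all genes. The higher ones included Gstp1 (1.38), Gstp2 (1.42) and Cyp4f13 (2.14), on the log2 scale, by the limma fit. With library totals as the scale, which moves the median of all genes from -0.09 to -0.40, 4 were higher and 35 lower. With the 5 GK5a libraries summed into 1, 3 were higher and 1 lower, and without picked library 2, 7 and 4, so the balance of calls changed with these settings. The shares of all genes called under these settings are not set beside them, so these counts describe the lists only.

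Between absorptive wells alone, 5 sorted and 2 picked libraries could be compared, and Ces1f was too low to be tested. Cyp3a11 was lower in the picked ones, at 839 to 1111 CPM in the sorted and 102 and 400.0 CPM in the picked libraries, with no overlap and a log2 difference of -2.21 ± 0.52 (SE, limma, Benjamini-Hochberg adjusted p = 0.049), against 3.17% of 1356 genes called lower and a median of all genes of -0.42. The call was lost in each of the 5 fits that left out a sorted library (adjusted p = 0.073 to 0.12 in the same limma fit) and was kept without picked library 2 (-1.10) or without picked library 3 (-3.36), where the lone picked library is assumed to vary like the others. In the absorptive wells with Fabp6 under 0.1% alone, Cyp3a11 was at 1136 to 1446 CPM in the 5 sorted libraries, 449 CPM in picked library 3 and 129 CPM in picked library 2. Sex and experiment code moved with this difference, and their part in it cannot be told apart from that of picking. Cyp3a25 (-1.07), Adh6a (1.06) and Gsta1 (-0.88) were not called by the limma fit, although Cyp3a25 was (-2.30) without picked library 3. None of 45 tested pathway genes was called in either direction by limma, against the 3.17% of all 1356 genes called lower. Of the 45, 8 had an unadjusted p under 0.05, a count with no share of all genes beside it and so a description only.

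**Figure D5:**
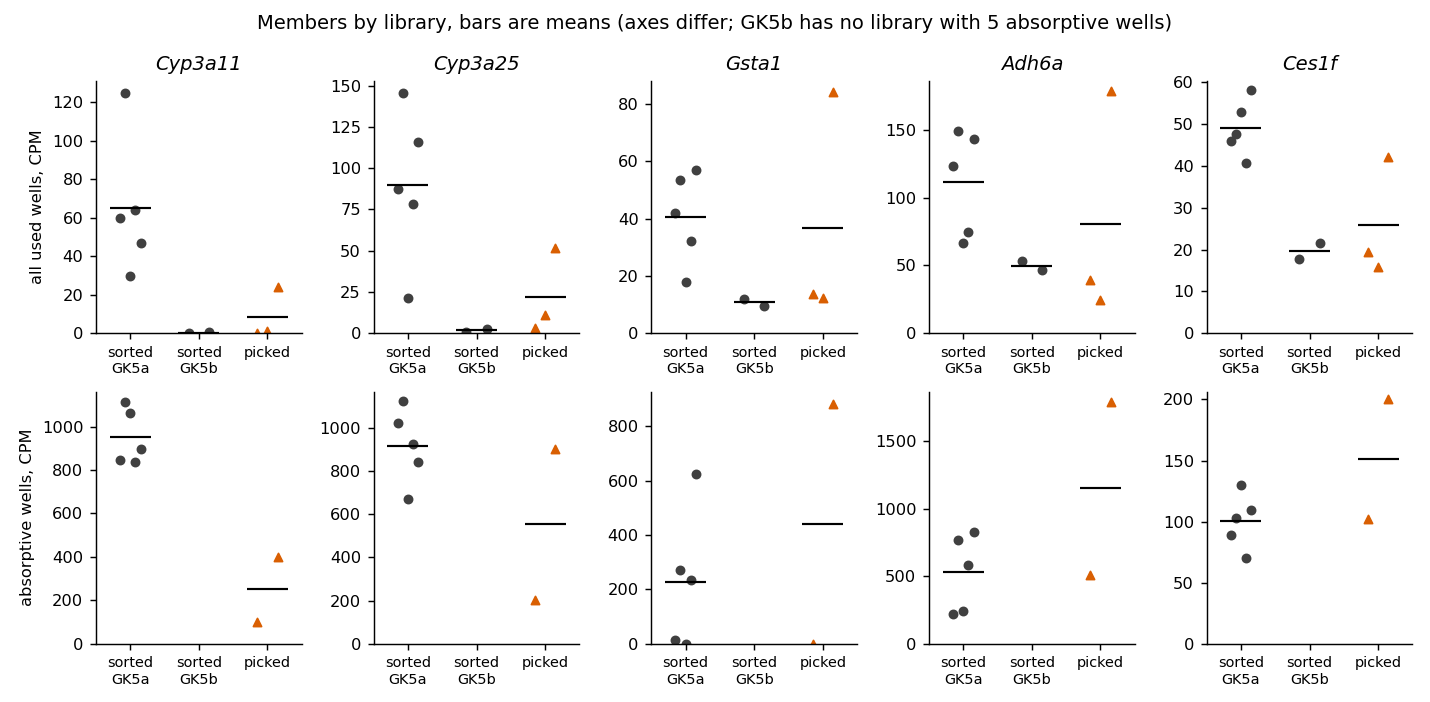
Level of each gene by library (CPM, axes differ), with sorted libraries of the codes GK5a and GK5b and picked libraries apart. The upper row is over all wells used and the lower row over absorptive wells, in libraries with at least 5 of them. For Cyp3a11 over all wells used, the 5 GK5a libraries lie at 29.5 to 125 CPM, above the picked libraries at 0 to 24.1 CPM, and both GK5b libraries lie under 0.5 CPM.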

How the data were processed

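CEL-seq2 libraries of 7 sorted and 3 picked plates were analysed from the values the authors deposited. Per the submitters' processing notes the aligner was BWA 0.6.2-r126 and the build mm10, the UCSC name of GRCm38. How reads were counted, whether strand was used and whether wells were filtered is not given in the sources used here. Values in the deposited tables are estimated numbers of molecules for each gene in each well, with no scaling between wells, and 100% of the values above 0 map back to whole barcode counts within 0.001. Their unit was entered as other, a measure of no listed kind, so log-scale tests were used and no count model. Groups and experiment codes were taken from the sample titles.

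Wells with at least 1000 endogenous transcripts were kept, spike-ins were left out of totals, no doublet caller was run since a picked well holds several cells by design, and no pair of used wells held the same profile. Classes followed the limits given with the results and may overlap. CPM are of library totals in the descriptions. For tests, sums per library were scaled by trimmed mean of M values computed over the genes tested, and log2(CPM + 1) was fitted with limma 3.58.1 (lmFit, eBayes with trend) in R 4.3.3. Genes were tested if 3 sums had the equivalent of 10 transcripts at the median depth and all sums together had 15. Calls needed a Benjamini-Hochberg adjusted p below 0.05. A first version took the scaling factors from all genes, and it was replaced after its results were seen. Log2 differences are between means of log2(CPM + 1), so for low genes, above all those with sums at 0, they can lie far above or below the ratio of the mean levels. In simulated sums, the picked against sorted fit over 10398 genes found 70 of 100 genes made to differ 2-fold and 99 of 100 made to differ 4-fold, and called 24 of 10198 unchanged ones. For absorptive wells it found 44 and 93 of 100 over 1367 genes and called 20 of 1167. For absorptive against other wells it found 4 and 53 of 100 over 7618 genes and called 1 of 7418. These rates hold only for the spread given to the simulated sums. They do not give the power for a gene that varies more between libraries. Over all wells used, Cyp3a11 ran from 0.21 to 125 CPM among the sorted libraries. A gene that was not called is therefore not shown to be unchanged.

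Likeness was the Pearson correlation among genes with at least 200 transcripts. Descriptions used Python 3.11.15, pandas 2.3.3 and scipy 1.17.1. Intervals and limits at 0 (3 counts) cover counting error only. Positions are from the GENCODE annotation of GRCm38, and promoters are from RefSeq on GRCm38.p6, with an entry for 4 of the 5 genes.

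The 5 genes and the 7 pathway lists (P450 and reductase, alcohol and aldehyde enzymes, carboxylesterases, glutathione S-transferases, other transferases, transporters, regulators) were chosen with earlier results of these data known. Named from the lists were the 4 largest positive and 3 largest negative differences among called genes and the gene of highest mean level in each list. A few genes that these rules name are not reported here. Cyp3a13, Adh1, Aldh1b1, Ces1e, Nr1i2, Nfe2l2, Hnf4a, Gstp1, Gstp2 and Cyp4f13 were named after their values were seen, as were Lct, Fabp1 and the other genes set beside Fabp6. The bins of apolipoprotein share, the Fabp6 split, the draw-down to equal depth and the fits without the deepest well were also chosen after the data were seen. Alternatives covered scaling, weighting of wells, gene filter, pseudocount, well limit, class limits, experiment code, blocking and leaving out each library.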

Additional observations from a re-analysis of the deposited data

Results flagged for a closer look

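Of 30 sets of sorted libraries (a gene in a class), 3 had 1 library far from the others relative to the range, and chance alone gives such a gap in about 1 of 20 sets. Cyp3a11 in cycling wells stood at 84.6 CPM in sorted library 2, with the next library at 4.79 CPM, and all of it came from 1 well that was also absorptive. Cyp3a11 in goblet wells stood at 4.33 CPM in sorted library 4, which is 1 transcript, with the next at 0.48 CPM. Gsta1 in Lgr5-positive wells stood at 19.8 CPM in sorted library 6, with the next at 7.98 CPM.

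The 1724 wells with fewer than 1000 transcripts, which entered no comparison, held 319744 transcripts in all. In them Cyp3a11 was at 59.4 CPM (30.2 CPM in the wells used), Cyp3a25 at 71.9 CPM (43.9 CPM) and Adh6a at 103 CPM (82.5 CPM), each above the limit that a count of 0 allows in these wells, 9.38 CPM. These levels rest on 19, 23 and 33 transcripts. Gsta1 and Ces1f had 1 and 3 transcripts there and did not pass that limit. Ces1f stood exactly at it, and the rule that a gene must exceed it was set after this was seen.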

How the results depend on the processing

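Of 128 settings of the main results, 118 stayed near the main value and 10 moved. Near meant within a fixed ratio for a count of called genes and within the SD over libraries for a share. For single genes 651 of 690 settings were labelled the same. That label meant the same sign and side of the threshold for a test, and within that SD for a share. Of the rest, 14 became weaker, 3 stronger, 3 moved and 19 reversed. The cause of a change was not tested except where fewer genes or samples entered. No call of the 5 genes between picked and sorted libraries over all wells appeared under scaling, filter, pseudocount or well alternatives, whereas 2 appeared against GK5a alone. In absorptive wells the number called was 1, and 0 to 2 when a library was left out. Pathway genes higher in absorptive wells were 39, from 30 to 51 without 1 library. Those lower were 6, from 5 to 7 without 1 library, 13 with every gene tested, 1 after drawing down and 2 after drawing down without picked library 2. Without 1 library the summed share of the 5 genes was 0.242% to 0.296% in absorptive, 0.00540% to 0.00677% in Lgr5-positive, 0.00983% to 0.0125% in cycling and 0.00499% to 0.00602% in goblet wells.

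Log2 differences over all wells that turned were 0.97 for Cyp3a25, 0.10 for Adh6a and 0.15 for Ces1f with GK5a summed into 1, 0.47 for Adh6a and 0.56 for Ces1f against GK5b, -0.22 for Gsta1 against GK5a, -0.10 for Gsta1 with library totals and 0.20 for Ces1f with each well weighted alike. Leaving out 1 library gave -1.71 to 0.017 for Cyp3a25, -0.62 to 0.73 for Gsta1 and -1.07 to 0.34 for Adh6a. None of these passed the test. In absorptive wells a 1% limit gave 0.19 for Cyp3a25 and 4.18 for Gsta1, and leaving out 1 library gave -2.30 to 0.13 for Cyp3a25, -5.88 to 4.08 for Gsta1 and -0.00030 to 2.10 for Adh6a. Gsto1 between absorptive and other wells was at -0.14 to 0.23 without 1 library and -0.031 without the deepest well.

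Genes called over all wells were 3152, but 1459 against GK5b alone and 1452 with GK5a summed. In absorptive wells they were 77, from 16 to 810 without 1 library, 143 with scaling factors from all genes and 156 at a 1% limit. Between absorptive and other wells they were 3646, of which 748 were higher, 6035 with every gene tested and 1040 after drawing down, of which 534 were higher. Without the library block, 36 pathway genes were higher. No paired analysis was possible between picked and sorted libraries because their titles share no replicate numbers. Depth limits the low values: picked library 2 held 9710 transcripts in its absorptive wells, where a count of 0 allows 306 CPM.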
